A study of Mus musculus with 3 samples.

Results

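The regions described here are stretches of introns that lay near a transcript start and were enriched for NKX2-5 in both chromatin immunoprecipitation (ChIP) libraries of the mouse embryonic heart. A region counted as shared where a peak of library S1 and a peak of library S4 overlapped by at least 1 bp. Its midpoint was the centre of the stretch covered by both peaks, and the midpoint had to lie inside an annotated gene body, outside every exon, and more than 1 kb but at most 20 kb from the nearest transcript start of any gene. The regions were thus chosen by the peak calls and scores of both libraries, and these values are described without a test. Of 2546 shared regions, 540 (21.2%, 95% interval 19.6% to 22.8%) met this rule, and they made up 52.1% of the 1036 shared regions in introns.

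NKX2-5 was immunoprecipitated from fixed whole hearts of Parkes strain mouse embryos at E11.5 (embryonic day) with an antibody to NKX2-5, and the S1 and S4 libraries are 2 samples of this 1 group, with no other genotype, treatment or stage. An Input library of the same tissue has no peak list, and its values were not analysed here. S1 held 4418 peaks and S4 held 5441, and the number of reads behind them is not given in the sources used here. Because whole hearts were used, strong binding in few cells and weak binding in many cells cannot be told apart.

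NKX2-5 is a homeodomain transcription factor needed for development of the heart, including its chambers and conduction system. Its preferred DNA site is built around the core AAGTG, whereas MEIS1, a homeodomain factor of the heart progenitor field, prefers the core TGACA. Introns close to promoters often carry enhancers, which are short stretches of DNA that collect transcription factors and can raise transcription from a start some distance away.

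Regions chosen for the motifs that they held or lacked are printed below, centred on the midpoint. Each is 101 bp of mouse genome build NCBIM37 (mm9), plus strand, 5′ to 3′. Capitals mark matches on either strand to TNAAGTG (a longer form of the NKX2-5 core), to AAGTG itself, to the MEIS1 core TGACA, to the GATA factor core AGATAA and to GTGNTGACA, and each match is a description of letters, not a mapped binding site. The following regions held TNAAGTG, or CACTTNA where it lay on the other strand, within 50 bp of the midpoint.
Rgs3, chr4:62231234-62231334: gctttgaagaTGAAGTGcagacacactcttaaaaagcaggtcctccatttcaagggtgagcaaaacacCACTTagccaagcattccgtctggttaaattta
Odz4, chr7:103809952-103810052: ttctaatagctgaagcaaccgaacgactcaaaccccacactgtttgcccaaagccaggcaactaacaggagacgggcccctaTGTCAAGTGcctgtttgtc
Crcp, chr5:130522651-130522751: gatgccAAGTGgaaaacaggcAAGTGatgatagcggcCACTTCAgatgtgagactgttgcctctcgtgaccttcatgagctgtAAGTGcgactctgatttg
Smoc2, chr17:14529561-14529661: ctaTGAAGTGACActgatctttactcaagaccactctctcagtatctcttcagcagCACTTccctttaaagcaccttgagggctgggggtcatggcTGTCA
Ltbp2, chr12:86141385-86141485: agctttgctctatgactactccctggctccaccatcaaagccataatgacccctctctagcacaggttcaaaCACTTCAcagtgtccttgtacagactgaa
Adamts9, chr6:92874505-92874605: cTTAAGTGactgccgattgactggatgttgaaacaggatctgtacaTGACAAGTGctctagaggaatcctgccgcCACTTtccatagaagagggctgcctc
Cadm1, chr9:47586621-47586721: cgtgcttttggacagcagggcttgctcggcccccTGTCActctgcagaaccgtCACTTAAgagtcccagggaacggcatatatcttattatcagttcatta

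The region in Myocd, which encodes a coactivator of serum response factor in heart and smooth muscle, is shown because it carried the composite GTGNTGACA, in which a GTG and the MEIS1 core are separated by 1 base. Its match started 3 bp before the midpoint, and a further TGACA lay 27 bp after it.
Myocd, chr11:65023093-65023193: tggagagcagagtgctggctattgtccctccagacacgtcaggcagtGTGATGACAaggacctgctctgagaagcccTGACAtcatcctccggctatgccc

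The centres of the regions at Myh6 (α-myosin heavy chain) and at Myl2 (ventricular myosin light chain, inside the overlapping gene Ccdc63) are shown for contrast, because they held none of the searched letters.
Myh6, chr14:55583637-55583737: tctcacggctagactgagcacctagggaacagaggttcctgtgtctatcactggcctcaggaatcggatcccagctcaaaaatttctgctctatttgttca
Ccdc63, chr5:122560791-122560891: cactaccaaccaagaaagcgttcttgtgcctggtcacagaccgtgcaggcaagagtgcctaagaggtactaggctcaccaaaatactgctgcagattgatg

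In the printed set, the TNAAGTG match of Cadm1 started 3 bp after the midpoint and that of Ltbp2 22 bp after it. In Smoc2 the letters of TNAAGTG and TGACA overlapped, so that the same stretch read as an NKX2-5 core running into a MEIS1 core. The Odz4 stretch held TGTCA, the reverse complement of the MEIS1 core, at the 5′ end of its TNAAGTG match and overlapping it.

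Scores in the peak lists are −10 log10 of the peak caller's p-value, so a higher score is a peak less likely under the caller's background. They depend on read depth and were not scaled between the libraries, and since both were used in the choice of the regions they are only described. In S1 the 540 regions scored from 140 to 3100, with a median of 293.9 and quartiles of 206.6 and 453.1. In S4 they scored from 140.2 to 3100, with a median of 316.8 and quartiles of 220.7 and 535. Regions over 20 kb from a start in introns, called deep intron regions here, had medians of 299 in S1 and 332.3 in S4, and regions within 1 kb of a start, called promoter regions, had medians of 243.3 and 295.7.

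The 2 libraries ranked the near-start intron regions alike only in part. Across the 540 regions Spearman's rho of the scores was 0.636 and Pearson's r of their log10 values was 0.746, both across regions of the same pair of libraries. The scores were within 2-fold of each other in 472 regions (87.4%, 84.3% to 90.1%), and S4 was the higher in 319 (59.1%). The log2 ratio of S4 to S1 ran from −1.96 to 2.60 with a median of 0.12, against a median of 0.16 over all shared regions. Both scores were at least 200 in 361 regions (66.9%), at least 500 in 93 (17.2%) and at least 1000 in 32 (5.93%).

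**Figure D1:**
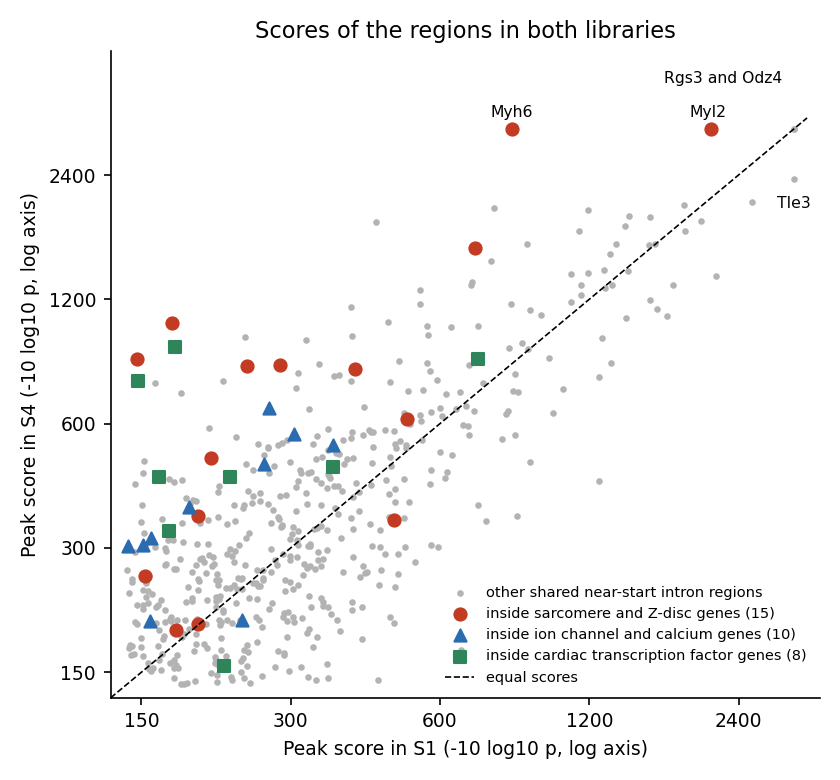
Each point is 1 of the 540 regions, with its S1 score on the x axis and its S4 score on the y axis (−10 log10 p, both log axes), and colours mark regions inside genes of 3 lists. Most regions lie near the dashed line of equal scores, whereas 14 of the 15 regions in sarcomere and Z-disc genes lie above it.

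The 10 leading regions were those with the best rank in the library where they ranked lower. Rgs3, a regulator of G protein signalling, held a region in its intron 2 that scored 3100 in S1 and 3100 in S4, 10.4 kb downstream of an Rgs3 start. Odz4, a teneurin that spans the membrane and acts in cell contact, held the only other region at 3100 in both libraries, 17.3 kb downstream of an Odz4 start. This score is the highest in either list, so regions that share it cannot be ordered.

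The Groucho corepressors Tle3 and Tle1, which are recruited by DNA-binding factors to silence targets, each held a region among the 10 leading ones. The Tle3 region scored 3100 in S1 and 2352 in S4 at 5.58 kb from a Tle3 start, and the Tle1 region scored 2020 and 1860 at 5.7 kb from a Tle1 start. Gnai2, an inhibitory G protein α subunit, held a region with 2559 in S1 and 2059 in S4, but the nearest start, at 10.3 kb, was that of Sema3b. The Ccdc63 intron region near Myl2 scored 2107 and 3100 and lay 6.92 kb downstream of a Myl2 start.

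The other 4 of the leading 10 lay in Gm2301, Crcp, Smoc2 and 3110082I17Rik. Crcp, a component of the calcitonin gene-related peptide receptor complex, held a region with 1593 in S1 and 1900 in S4. Smoc2, a secreted matrix protein that binds calcium, held 1 with 1868 and 1760, and it lay 6.51 kb upstream of a Smoc2 start in intron 9. The region in 3110082I17Rik scored 1440 and 1912 and was nearest to the start of Gpr30, a membrane oestrogen receptor. The Gm2301 region scored 1862 and 2031 and also lay inside the annotated gene Gm16064.

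The regions were about as dense in near-start introns as deeper in introns, and less dense than at promoters. Introns over 1 kb and up to 20 kb from a start covered 474.9 Mb, which gave 1.14 regions per Mb, and introns beyond 20 kb covered 442.8 Mb with 1.12 deep intron regions per Mb. Promoter sequence, within 1 kb of a start, covered 106.2 Mb and held 4.11 shared regions per Mb. Within the near-start introns the density was 1.03 regions per Mb from 1 to 2 kb (95% Poisson interval 0.764 to 1.35), 1.14 from 2 to 5 kb, 1.17 from 5 to 10 kb and 1.14 from 10 to 20 kb, with overlapping intervals throughout. The intervals cover counting error only, and no test was made because position was part of the rule.

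**Figure D2:**
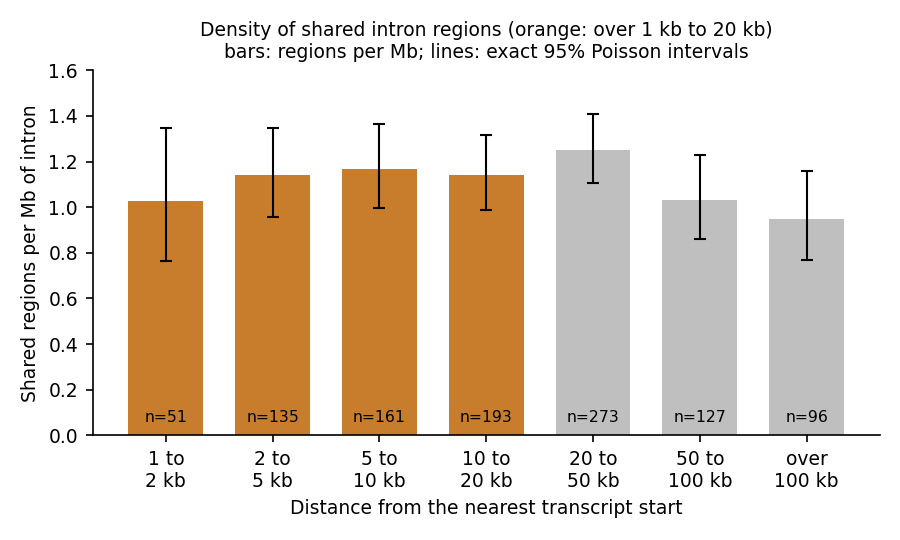
Bars give shared intron regions per Mb of intron (y axis) in each range of distance from the nearest transcript start (x axis), with n regions and exact 95% Poisson intervals as lines. The near-start ranges in orange lie between 1.03 and 1.17 regions per Mb, and the deeper ranges in grey between 0.948 and 1.25.

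The regions nearest to each distance limit are given on both sides of it. Just inside 1 kb lay a region in Ltbp2, which encodes a latent TGF-β binding protein, at 1022 bp (687.4 in S1 and 562.4 in S4). The region in Mib1 at 1042 bp from Mir1b scored 573.8 and 803.1. Just outside lay regions in Inpp4b at 988 bp (656.1 in S1 and 597.7 in S4) and in Nr6a1 at 966 bp (242.3 and 169.2). At the other limit, Rab3gap2 at 19969 bp (340 in S1 and 293.4 in S4) and D19Bwg1357e at 19713 bp (565.4 and 840.7) were inside, and Gm12023 at 20055 bp (411.5 and 550.3) and Ascc1 at 20059 bp (326 and 666.4) were outside. In all, 4 regions lay within 100 bp above the 1 kb limit and 14 within 1 kb under the 20 kb limit.

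Near a start did not always mean near the main start of the gene that held the region. The nearest start belonged to the host gene in 394 regions (73.0%), with the region downstream of it in 275 and upstream of it, from an internal start, in 119. In the other 146 the nearest start belonged to another gene, which was protein-coding in 48 of them (32.9%). The host gene's outermost start was within 20 kb for 223 regions (41.3%), and the median distance from it was 30.73 kb. The regions lay in a first intron of some transcript in 278 cases (51.5%, 47.2% to 55.8%), and such introns made up 46.2% of the near-start intron sequence. Protein-coding genes held 509 of the 540, and 32 regions lay inside more than 1 gene.

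The regions had another shared region nearby about as often as all shared regions did. The median distance to the nearest other shared region was 126.3 kb, against 151.7 kb over all shared regions. Another shared region lay within 5 kb of 46 of them (8.52%), against 7.78% of all shared regions, and within 50 kb of 160 (29.6%), against 28.6%. Median peak width was 681.5 bp in S1 and 853.5 bp in S4, and the deep intron regions had medians of 675.5 bp and 846.5 bp.

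The sequence around the midpoints was compared next, because motifs were not used to choose the regions. Both strands were searched within 100 bp of the midpoint for TNAAGTG, for the MEIS1 core TGACA, for the composite GTGNTGACA and for the GATA core AGATAA, and flanking windows of the same length 2 kb to either side gave the background. Matches to GTGNTGACA always contain TGACA, and matches to TNAAGTG always contain AAGTG. The composite GTGNTGACA resembles a hybrid motif, ending in a MEIS1 site, that the paper found de novo in the top regions of this same ChIP. An excess of the composite over the flanks is therefore not independent evidence for that motif.

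The longer NKX2-5 core was present in over 3 times the share of the flanks. TNAAGTG lay near the midpoint of 191 of the 540 regions (35.4%, exact binomial interval 31.3% to 39.6%), against 11.4% of 1080 flanking windows and 32.4% of all shared regions. The MEIS1 core TGACA was present in 396 regions (73.3%), against 39.2% of flanks and 64.7% of all shared regions. The composite GTGNTGACA was rarer, with the highest ratio to its flanks (15.7) but the smallest difference in points of the NKX2-5 and MEIS1 motifs. It was found in 55 regions (10.2%, 7.77% to 13.1%), against 0.648% of flanks and 9.54% of all shared regions. The GATA core AGATAA was found in 109 regions (20.2%), against 11.0% of flanks and 19.0% of all shared regions.

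The near-start intron regions carried each of these motifs more often than promoter regions did. TNAAGTG was found in 16.7% of the 436 promoter regions, 18.6 percentage points below the near-start introns (interval 13.2 to 23.9 points; two-sided Fisher's exact test, Benjamini-Hochberg adjusted over 8 tests, p = 2.01e-10). TGACA was found in 36.5% of promoter regions, a difference of 36.9 points (30.8 to 42.5; Fisher's exact test, adjusted p = 2.03e-30). GTGNTGACA was found in 2.98% of them (difference 7.20 points, 4.14 to 10.3; Fisher's exact test, adjusted p = 1.77e-05) and AGATAA in 10.1% (difference 10.1 points, 5.6 to 14.5; Fisher's exact test, adjusted p = 2.65e-05). The AGATAA difference was lost in windows of 25 bp (odds ratio 1.30, Fisher's exact test, adjusted p = 0.706). Flanks of the promoter regions held TNAAGTG in 11.7%, TGACA in 36.5%, GTGNTGACA in 1.26% and AGATAA in 11.6%. Promoter regions thus did not exceed their own flanks for TGACA or AGATAA. GC content was not matched between the classes. These p-values treat regions as the units and say nothing of spread between hearts.

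**Figure D3:**
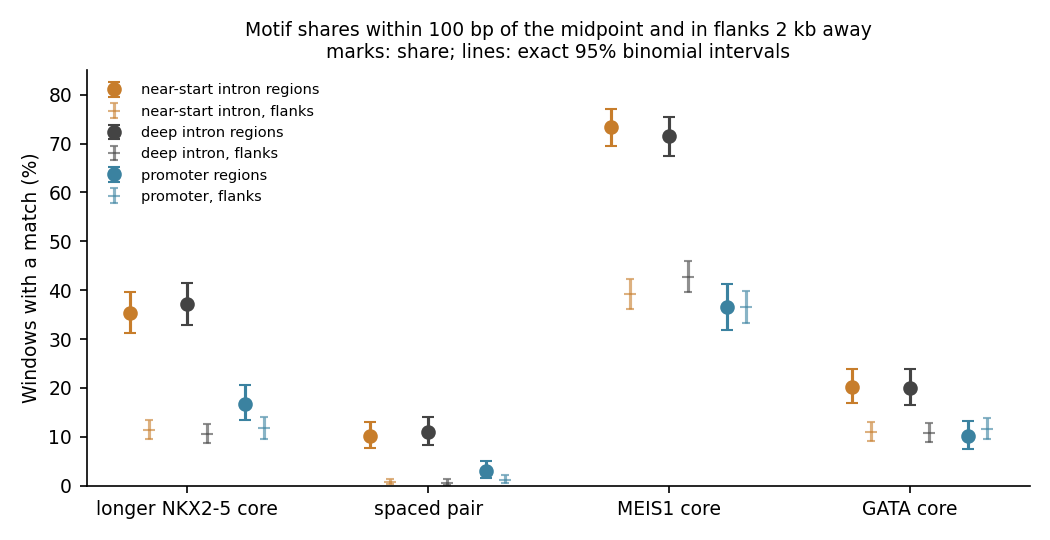
Dots give the share of windows with a match (y axis, %) within 100 bp of the midpoint for 4 motifs (x axis) in 3 classes of shared region, dashes the share in flanks 2 kb away, and lines exact 95% binomial intervals. Near-start and deep intron regions lie side by side for every motif, and promoter regions lie lower.

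No difference in motif share from the deep intron regions passed the test with shared regions, although with the peaks of S4 alone TGACA was less frequent in near-start introns (odds ratio 0.796, Fisher's exact test, adjusted p = 0.0223). TNAAGTG was found in 37.1% of the 496 deep intron regions, so that the near-start share was 1.73 points lower, with an interval from −7.57 to 4.11 (Fisher's exact test, adjusted p = 0.806). The interval of the difference was −3.67 to 7.21 points for TGACA, −4.51 to 3.05 for GTGNTGACA and −4.68 to 5.09 for AGATAA, with adjusted p-values of 0.806, 0.870 and 0.938 in Fisher's exact test. A difference of any size inside these intervals would be compatible with the data. GC content within 100 bp had a median of 49.75% in near-start and 48.76% in deep introns (difference 0.995 points, two-sided permutation test over regions, p = 0.0471), and this call was lost under 4 alternatives. Promoter regions had a median GC content of 54.73%.

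In the near-start intron regions the motifs were more frequent around the midpoints than farther out. The nearest TNAAGTG was a median of 43 bp from the midpoint in the 191 regions that held it. The nearest GTGNTGACA was a median of 49 bp away in 55 regions. Only matches within 100 bp were counted, so evenly spread matches would give medians of about this size, and the medians do not show concentration. In bins of 50 bp the near-start intron regions held 12.4 TNAAGTG matches per 100 regions just after the midpoint and 4.26 at the far left end of the profile. TGACA fell from 41.5 to 12.6 matches per 100 regions over the same positions. GTGNTGACA fell from 2.41 to 0, but it stood at 3.15 from 150 to 100 bp before the midpoint, so it showed no sharp peak. Promoter regions held 6.19 TNAAGTG and 11.0 TGACA matches per 100 regions just after the midpoint.

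**Figure D4:**
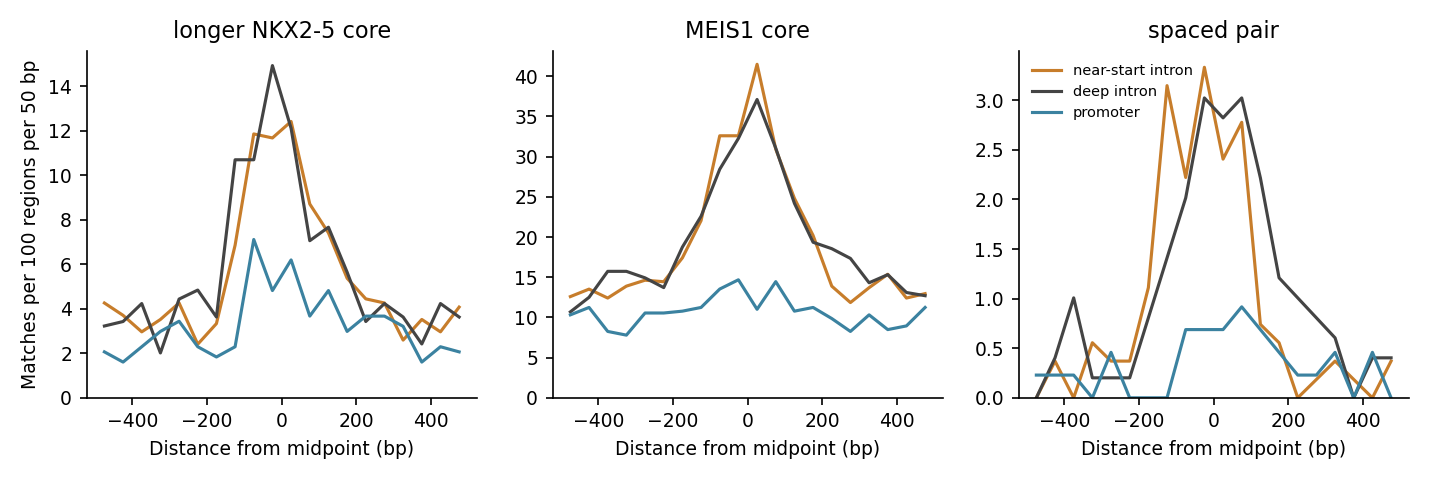
Lines give matches per 100 regions in bins of 50 bp (y axis) by distance from the midpoint in bp (x axis), for TNAAGTG (left), TGACA (middle) and GTGNTGACA (right) in 3 classes of shared region. Near-start and deep intron lines rise together around 0, to at most 12.4 and 14.9 TNAAGTG matches, and the promoter line stays lower, at most 7.11.

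Over 50% of the regions held neither TNAAGTG nor the composite. TNAAGTG without the composite was found in 171 regions (31.7%), the composite without TNAAGTG in 35 (6.48%), both in 20 (3.70%) and neither in 314 (58.1%). Either motif was found in 37.0% to 45.1% of regions across the near-start distance ranges and in 37.8% to 51.0% across the deep intron ranges. Lacking both was thus not particular to the near-start introns. In the same order the S1 medians of these classes were 304.4, 281.5, 326.1 and 283.4, and the S4 medians were 317.7, 281.4, 313.5 and 329.5. With the regions ordered by their smaller score and cut into 4 equal bins, the share with TNAAGTG was 37.0% in the lowest bin and 37.0% in the highest. By distance it was 31.4% from 1 to 2 kb, 27.4% from 2 to 5 kb, 37.9% from 5 to 10 kb and 39.9% from 10 to 20 kb, with overlapping intervals. At the free base of TNAAGTG, C stood in 90 of 235 matches, G in 68, T in 54 and A in 23.

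Short cores of other cardiac factors were closer to their flanks. The T-box core AGGTGT was found in 82 regions (15.2%), against 13.1% of flanks and 13.7% of all shared regions. The TEAD core GGAATG was found in 83 (15.4%), against 10.8% and 15.1%. The MEF2 core TATTTATA was found in 7 regions (1.30%), against 1.30% of flanks and 1.22% of all shared regions, so that it did not stand above the flanks. The plain core AAGTG was found in 370 regions (68.5%), against 39.7% of flanks and 64.0% of all shared regions.

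The genes that held the regions were counted next. Of 18466 protein-coding genes with near-start intron sequence, 468 (2.53%) held at least 1 region, of which 414 held 1, 52 held 2 and 2 held 3. The share rose with the amount of such sequence, from 0.135% of the fifth of genes with the least to 8.39% of the fifth with the most. Genes that held a region had a median of 56.1 kb of it, against 15.49 kb over all genes. Of the 468 genes, 66 (14.1%) also had a deep intron region, against 2.08% of all these genes, and 26 (5.56%) had a promoter region, against 1.99%. These shares were not matched for the amount of intron sequence, so they do not show that such regions occur together.

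Dab2ip, which encodes a GTPase-activating protein for Ras, held 3 regions. They scored 434.5 in S1 and 573.1 in S4, 366.6 and 783.5, and 180.6 and 713. S4 was the higher library at each of them.

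Of the gene lists, that of the sarcomere and Z-disc, the contractile lattice of muscle, had the highest share of genes with a region at the main settings, and the other lists were not recounted under alternatives. The lists were chosen with earlier results of these data known, so their shares, here and below, are descriptions and were not tested. Of the 57 genes of the sarcomere list, 14 (24.6%, 14.1% to 37.8%) held 1 or more, against 2.53% of all protein-coding genes. The share among genes with a like amount of near-start intron, called the matched share here, was 2.87%. The list's median of 16.95 kb of near-start intron was close to the 15.49 kb of all genes. These genes were Acta2, Actn2, Csrp3, Flnc, Ldb3, Myh6, Myh7, Myl2, Myl4, Mylk, Mylk3, Tmod1, Tnni1 and Tpm1, with 15 regions. All 15 lay downstream of the nearest start, against 65.6% of all 540, at a median of 2.8 kb against 7.10 kb.

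These regions were higher and wider in S4. Myh6 held a region with 837.6 in S1 and 3100 in S4, which S1 called as 5 peaks and S4 as a single peak of 11100 bp. Myl4, an atrial light chain of the embryonic heart, held 1 with 706.7 in S1 and 1599 in S4. Both Tpm1 regions, in a gene for the actin-coating protein tropomyosin, were weak in S1 and strong in S4, at 173.1 and 1049 and at 146.7 and 861.9. S4 was the higher library in 14 of the 15, with a median log2 ratio of S4 to S1 of 1.01 against 0.12 over the 540 regions, and median widths were 836 bp in S1 and 1311 bp in S4.

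Actn2, the Z-disc protein α-actinin, was the exception, with 483.6 in S1 and 350.1 in S4. TNAAGTG was found in 2 of the 15 (Myh7 and a Tpm1 region), the composite in 1 (Ldb3) and TGACA in 7, against 35.4%, 10.2% and 73.3% of all 540. Mylk3, which encodes the cardiac myosin light chain kinase, held a region with 404.9 in S1 and 813.6 in S4 at 1.53 kb from a Mylk3 start. Without regions over 2 kb wide in S4 the count of sarcomere genes fell from 14 to 8 of 57 (14%), with scores of at least 200 or an overlap of at least 50% it fell to 9 (15.8%), and from S4 alone it was 21 (36.8%) and from S1 alone 17 (29.8%).

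Wide regions were few and mostly in muscle genes. Of the 540 regions, 12 were over 2 kb wide in S4, and the widest after Myh6 were those near Myl2 (6770 bp), in Myl4 (3874 bp) and in Copg2 (3470 bp). The others lay in Tpm1, Sfi1, Ankrd1, Ypel4, Gm17419, Myh7 and Ldb3. S4 was the higher library in 11 of the 12, against 59.1% of all 540, with a median log2 ratio of 1.82 against 0.12. TNAAGTG or the composite lay near the midpoint in 3 of the 12, and 58.1% of all 540 held neither. The part that peak width had in the higher S4 scores, or in the share with a motif near the midpoint, was not tested.

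Of 55 ion channel and calcium handling genes, 9 (16.4%) held a region, against 2.53% of all protein-coding genes and a matched share of 4.64%. S4 was the higher library in 9 of their 10 regions, against 59.1% of all 540, at a median log2 ratio of 0.95 against 0.12. Ryr2, the calcium release channel of the sarcoplasmic reticulum, held a region with 271.8 in S1 and 653.7 in S4 at 2.47 kb from a Ryr2 start. Kcnj8, a pore subunit of the ATP-sensitive potassium channel, held 1 with 304.4 and 566.5, and its partner Abcc9, the sulphonylurea receptor subunit, 1 with 156.8 and 317.7. Jph2, which ties the sarcoplasmic reticulum to the plasma membrane, held 1 with 141.2 in S1, close to the lowest score in the list, and 302.9 in S4.

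Cardiac transcription factor genes held 8 regions in 5 of 64 genes (7.81%, against 2.53% of all protein-coding genes). The matched share of 3.45% lay inside the interval of this share, 2.59% to 17.3%. Gata4, a zinc finger factor that binds DNA beside NKX2-5, held 1 with 170.6 in S1 and 329 in S4 and another with 219.8 and 155.4. Gata6 held 1 with 162.7 and 446.2, whose nearest start was that of a neighbouring annotated transcript. Rxra, a retinoid receptor, held regions with 716.3 and 861.4 and with 364.4 and 470.5. Ankrd1, a stress-responsive muscle cofactor, held regions with 175.3 and 917.8 and with 147.6 and 759.4, among the largest gaps between the libraries. S4 was the higher in 7 of the 8, against 59.1% of all 540.

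**Figure D5:**
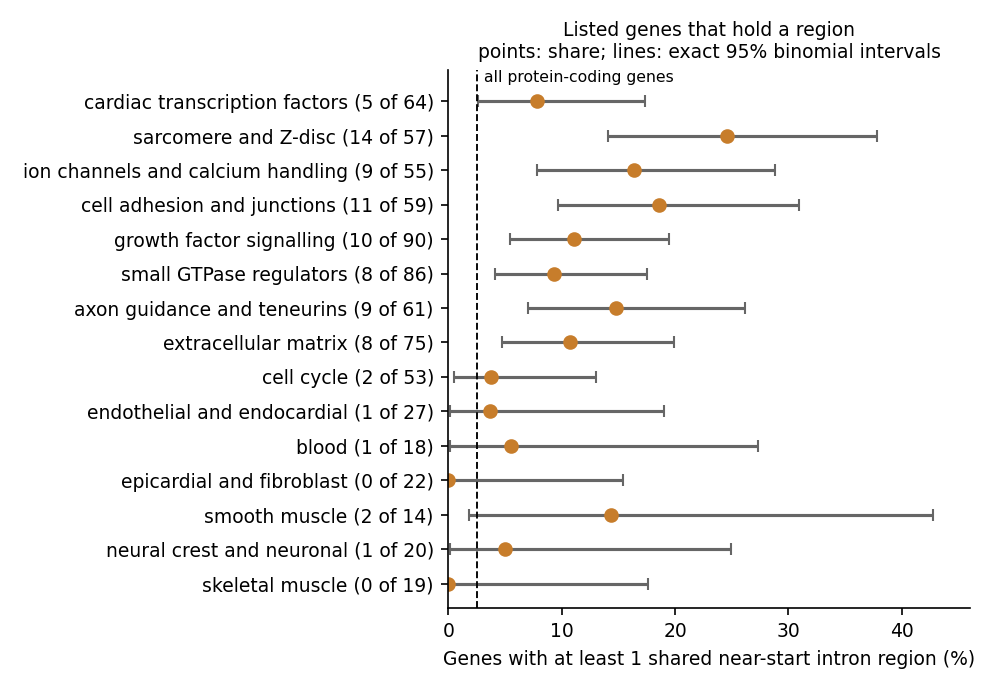
Points give the share of listed protein-coding genes with at least 1 near-start intron region (x axis, %) for 15 lists (y axis, with the counts), lines exact 95% binomial intervals and the dashed line the 2.53% of all protein-coding genes. The sarcomere list reaches 24.6%, and the epicardial and skeletal muscle lists lie at 0.

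Cell adhesion and junction genes held 12 regions in 11 of 59 genes (18.6%, against 2.53% of all protein-coding genes), with log2 ratios of S4 to S1 from −0.70 to 1.17 and a median of 0.09. They had a median of 56.88 kb of near-start intron per gene, and the matched share was 5.80%. Cdh2, or N-cadherin, the main cadherin between cardiomyocytes, held 1 with 1192 in S1 and 1391 in S4 and another with 271.3 and 455.1. Dsc2, a desmosomal cadherin, held 1 with 1257 and 776.4. Vcl, or vinculin, which links junctions to actin, held 1 with 299.4 and 286.8.

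Growth factor signalling genes held 13 regions in 10 of 90 genes (11.1%, against 2.53% of all protein-coding genes and a matched share of 4.02%). TNAAGTG was found in 9 of the 13, against 35.4% of all 540 regions. Fgfr2, a fibroblast growth factor receptor, held 1 with 488.3 in S1 and 523.1 in S4 and another with 400 and 285.1. Both lay in an intron that the annotation extends over 2957 kb across other genes. Their nearest starts were those of 4933402N03Rik and Cpxm2, so their place in this list is uncertain. Fgf10, a ligand of the anterior heart field, held 1 with 400.6 and 333.6 at 19.61 kb from an Fgf10 start. Smad3, which carries TGF-β signals to the nucleus, held 1 with 322.4 and 954.4, and Bmp7 1 with 214.7 and 225.9. Tgfbr3, a coreceptor for TGF-β, held regions with 456.1 and 264.7 and with 174.8 and 432.7.

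Axon guidance and teneurin genes held 11 regions in 9 of 61 genes (14.8%, against 2.53% of all protein-coding genes). The matched share was 5.04%, and the Odz4 region was the strongest. Ntn4, a netrin of basement membranes, held a region with 1290 in S1 and 1279 in S4 that carried both TNAAGTG and the composite within 100 bp. Sema3c, a guidance ligand with a role in outflow tract septation, held 1 with 184.6 and 222.1. Regulators of small GTPases held 10 regions in 8 of 86 genes (9.30%, 4.10% to 17.5%, against 2.53%). The matched share of 6.78% lay inside this interval. TNAAGTG was found in 7 of the 10 regions, against 35.4%. Their genes had a median of 67.25 kb of near-start intron, the longest of any list, and 8.39% of genes in the fifth with the most such sequence held a region.

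Extracellular matrix genes held 8 regions in 8 of 75 genes (10.7%, 4.72% to 19.9%, against 2.53%). The matched share of 4.97% lay inside this interval. TNAAGTG was found in 6 of the 8 regions, against 35.4%. In the cell adhesion, axon guidance, ion channel and cardiac transcription factor lists TNAAGTG was found in 5 of 12, 4 of 11, 3 of 10 and 3 of 8. These counts are small, and no list was tested for the motif. Adamts9, a matrix protease of the developing valves, held 1 region with 356.3 in S1 and 453.3 in S4. Nid2, a basement membrane linker, held 1 with 358.3 and 448.7. Cell cycle genes held regions in 2 of 53 (3.77%), which were Ccnd3 with 288.9 and 289.9 and E2f3 with 171.1 and 158.

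Lists of markers of other cell types were short, and few genes of any of them held a region. The shares were 3.70% of endothelial, 5.56% of blood, 5.00% of neural and 14.3% of smooth muscle genes, against 2.53% of all protein-coding genes. Pecam1, an adhesion molecule of endothelium and endocardium, was the only 1 of 27 endothelial genes to hold any, with 1416 in S1 and 1808 in S4 and a weaker region with 193 and 175.2. Of 18 blood genes only Ank1 held 1, with 397 and 554.9. None of 22 epicardial and fibroblast genes and none of 19 skeletal muscle genes held any, which with so few genes allows shares of up to 15.4% and 17.6%. Both smooth muscle genes that held a region, Acta2 and Mylk, are also in the sarcomere list, and Th was the only 1 of 20 neural genes with a region (1331 in S1 and 843.4 in S4).

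Of 9 genes at or beside enhancers that the study examined, Myocd, Cadm1 and Hsf2 held a region of this class. Gja1 and Hsf2 are named there as a single locus, and Tnni2 and Tnnt3 share an enhancer beside Lsp1. The paper reports its hybrid motif in the regions it tested at Myocd, Cadm1 and Gja1/Hsf2. Whether the regions described here are those tested elements was not checked. The Myocd region, printed above with the composite, scored 226.1 in S1 and 446.4 in S4 and lay 4.17 kb upstream of a Myocd start in intron 5 of the longest transcript. The Cadm1 region, in a cell adhesion gene, scored 210.5 and 273.9 at 18.84 kb from a Cadm1 start. Within 100 bp of its midpoint it held TNAAGTG and 2 TGACA matches but not the composite. The Hsf2 region, in a gene for a heat shock transcription factor, scored 286.3 and 337.2 and held TGACA but neither longer motif within 50 bp of the midpoint. Popdc2, Lsp1, Tnni2, Tnnt3, Gja1 and Lpar3 held none in a near-start intron.

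Peaks called in a single library were compared with the shared ones by their own midpoints. Of 944 near-start intron peaks in S1, 58.7% overlapped a peak in S4, against 58.9% of all S1 peaks, 62.3% of deep intron peaks and 48.1% of promoter peaks. Of 1199 in S4, 46.1% overlapped a peak in S1, against 47.0% of all S4 peaks, 53.4% and 35.1%. Peaks found in S1 alone had a median score of 171.4 against 294.8 for the shared, and peaks found in S4 alone 180.7 against 317.7.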

How the data were processed

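NKX2-5 ChIP from E11.5 hearts was sequenced as 2 libraries (S1 and S4) with 1 Input. Per the labels and the study's methods, the authors aligned reads to mm9 with Bowtie (CASAVA 1.4 is also named) and called peaks with MACS 1.4, and deposited 1 peak list per library, with the score in −10 log10 p. Read depth, scaling and the use of Input for these lists are not given in the sources used here. Read counts were not used here, and intervals (Clopper-Pearson for shares, Poisson for densities) cover only counting error over regions.

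Peaks overlapping by at least 1 bp were merged, and midpoints were placed on GENCODE M1 gene models. Members, gene lists and tests were chosen with earlier results of these data known. The regions named are the 10 with the best worse rank, the 2 with the highest smaller score in each gene list, those at the study's enhancer genes, those of the genes with most members, and those nearest each distance limit, and other named genes were chosen after their values were seen. Some regions that this rule names are not reported here. Sequences are from NCBIM37.

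Motif shares were compared by two-sided Fisher's exact test with Benjamini-Hochberg adjustment over 8 tests at a threshold of 0.05, and median GC by a two-sided permutation test with 100000 resamples, in Python 3.11.15, scipy 1.17.1 and pandas 2.3.3. The scripts were tested on simulated data. Alternatives were the overlap, score minimum, distance limits, midpoint, window and leaving out either library.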

Additional observations from a re-analysis of the deposited data

How the results depend on the processing

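Of 118 recomputed values, 92 kept their direction and call, 13 reversed, 5 lost their call and 8 counts or values moved. The number of regions was 347 with an upper limit of 10 kb and 944 to 1199 when either library was left out and the peaks of the other were used. Against deep introns, where no test passed, the odds ratio crossed 1 for TNAAGTG at an overlap of at least 50% (1.002), for TGACA with the S4 midpoint (0.986) and for GTGNTGACA in windows of 25 bp (1.09) and without replicate 4 (0.860 to 1.03 when a library was left out). For AGATAA it was 0.946 with the S1 midpoint, 0.848 with the S4 midpoint, 0.955 in protein-coding genes only, 0.960 with a limit of 10 kb, 0.874 over the whole stretch and 0.801 to 0.891 when a library was left out. For TGACA it was 0.796 to 0.916 when a library was left out, and in S4 alone, without replicate 1, this passed in the opposite direction (Fisher's exact test, adjusted p = 0.0223). Against promoters the AGATAA call was lost in windows of 25 bp (odds ratio 1.30, Fisher's exact test, adjusted p = 0.706). The GC difference of 0.995 points lost its call at an overlap of 50% (permutation p = 0.0690), in protein-coding genes only (p = 0.0597) and at 10 kb (p = 0.0934), and was 0 in windows of 25 bp (p = 1). The causes were not tested.

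Alternatives for the gene counts were chosen after seeing the data. Genes with a region numbered 325 at scores of at least 200, 428 at 50% overlap, 458 without wide regions and 773 to 949 when a library was left out. Sarcomere genes with a region numbered 9 of 57 at scores of at least 200, 9 at 50% overlap and 8 without regions over 2 kb wide. No paired analysis was possible because both ChIP libraries belong to the same group and the Input has no peak list. With 2 libraries and unknown read depth, a region missing from either list cannot be called unbound.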
